A study of Arabidopsis thaliana with 6 samples.

Results

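Skipped exon bins are the stretches that the authors' splicing table types as ES: exons that some transcripts of a gene include and others leave out. They were taken by that type alone, with no use of a measured value, and there were 913 of them among 7973 splicing bins of all types. The bins lay in 721 genes: 584 genes had 1 bin, 103 had 2, and 34 had 3 or more, with at most 6 in a gene. In each library the reads of a bin were set against the reads of its gene, so that a change of the bin is relative to the level of the gene. Inclusion here means that share of reads, which can also hold reads of unspliced RNA.

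RNA of Arabidopsis thaliana was sequenced from the gemin2 mutant and from wild-type (WT) plants of the Col ecotype, with 3 libraries per genotype. Both genotypes were whole plants 9 days old, grown on Murashige and Skoog agarose at 22 °C in continuous light after 4 days of stratification in the dark at 4 °C. RNA was purified on its polyA tail and came from a pool of tissues. The labels do not give the allele of gemin2. They do not say either whether the 3 libraries of a genotype are separate cultures, so the p-values here cover a spread between libraries that may be only technical.

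In exon skipping the splicing machinery joins the exons on either side of an exon and leaves that exon out. Whether an exon is recognised depends on the U1 particle at the donor site that follows it, on the U2 particle and its partners at the acceptor site that precedes it, and on RNA-binding proteins in between. GEMIN2 belongs to the SMN complex, the assembly factor that places the ring of Sm proteins on the RNAs of these particles. In plants, skipped exons are a smaller class of alternative splicing than retained introns.

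The libraries held 15467372 to 17217408 gene reads in gemin2 and 14049163 to 16732098 in WT. The GEMIN2 gene had 71, 77 and 74 reads in the gemin2 libraries and 239, 262 and 221 in the WT libraries, a log2 fold change of -1.82 (SE 0.0968, adjusted p = 4.46e-09, edgeR). The leaf gene RBCS1A averaged 13507 CPM (counts scaled to library size) in gemin2 and 13929 in WT, and another leaf gene, LHCB1.3, 16885 in gemin2 and 11230 in WT. The root gene SCR averaged 49.3 CPM in gemin2 and 42.5 in WT. The flower genes AG and AP3 were at or under 0.0844 CPM in either genotype. Of the other root genes, PHO1 averaged 94.8 CPM in gemin2 and 80.0 in WT, IRT1 205 in gemin2 and 328 in WT, and RHD6 1.22 in gemin2 and 2.59 in WT. The seed genes OLEO2 and CRA1 averaged 0.892 and 4.96 CPM in gemin2, and 0.637 and 3.70 in WT. In whole plants fewer cells of a type and less RNA per cell cannot be told apart, and the part of organ makeup in the results was not tested.

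The exons on which the results turn are shown here with 15 bases of intron on either side, so that the splice sites can be read directly. They are coding exons from the called bins described below, given as the RefSeq sequence of TAIR10.1 at the TAIR10 coordinates of the deposited table, 5′ to 3′ on the strand of the gene. Capitals mark the skipped exon and lower case marks intron, so each run of capitals stands between ag and gt.
DEP1 E012, chr5:21863653-21863700, minus strand, 48 bases: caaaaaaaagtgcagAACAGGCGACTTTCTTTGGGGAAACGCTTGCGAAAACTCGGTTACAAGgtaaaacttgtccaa
PFD1 E005, chr2:3046227-3046233, plus strand, 7 bases: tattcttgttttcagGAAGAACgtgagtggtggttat
PAPP5 E009, chr2:17814558-17814719, minus strand, 162 bases: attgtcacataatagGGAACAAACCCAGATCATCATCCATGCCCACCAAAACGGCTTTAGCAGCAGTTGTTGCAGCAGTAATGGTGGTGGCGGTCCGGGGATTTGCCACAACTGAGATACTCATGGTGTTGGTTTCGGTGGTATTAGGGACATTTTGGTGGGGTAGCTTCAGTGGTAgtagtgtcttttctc
CURT1C E004, chr1:19454187-19454273, minus strand, 87 bases: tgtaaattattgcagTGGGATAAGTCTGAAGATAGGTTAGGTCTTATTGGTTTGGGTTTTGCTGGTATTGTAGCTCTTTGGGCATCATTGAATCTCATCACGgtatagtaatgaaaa
PRP39 E009, chr1:1054285-1054385, plus strand, 101 bases: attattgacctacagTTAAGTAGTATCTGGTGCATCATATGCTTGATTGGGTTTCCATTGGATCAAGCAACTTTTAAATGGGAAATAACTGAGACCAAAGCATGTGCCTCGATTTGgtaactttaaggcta
PRP39 E010, chr1:1054465-1054528, plus strand, 64 bases: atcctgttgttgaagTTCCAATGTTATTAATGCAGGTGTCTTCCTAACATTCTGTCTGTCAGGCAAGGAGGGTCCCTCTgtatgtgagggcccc
AT1G13350 E010, chr1:4575915-4575995, minus strand, 81 bases: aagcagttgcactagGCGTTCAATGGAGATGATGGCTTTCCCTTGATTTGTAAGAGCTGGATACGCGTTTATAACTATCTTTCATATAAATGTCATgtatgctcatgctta
AT1G76940 E006, chr1:28903792-28903913, minus strand, 122 bases: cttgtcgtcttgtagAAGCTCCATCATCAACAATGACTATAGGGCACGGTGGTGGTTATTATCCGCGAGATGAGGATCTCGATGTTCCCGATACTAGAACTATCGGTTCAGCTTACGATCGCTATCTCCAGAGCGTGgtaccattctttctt
XBAT35 E008, chr3:8323099-8323170, plus strand, 72 bases: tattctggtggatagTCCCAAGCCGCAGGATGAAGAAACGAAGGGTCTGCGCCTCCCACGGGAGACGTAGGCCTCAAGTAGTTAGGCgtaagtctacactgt

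Across all 913 bins the splice sites and the annotation matched the type. The bases beside the bin read AG before and GT after it for 900 bins, and AG and GC for 11 more. An exon of exactly these ends stood in RefSeq for 881 bins, and a RefSeq transcript that leaves the bin out was found for 881. The median width was 67 bases, with the middle of the distribution between 45 and 94 and a range from 1 to 1685. Narrow bins were few: 13 were under 10 bases wide and 96 were under 30. In RefSeq 667 bins were wholly coding, 80 lay in a 5′ UTR, 5 in a 3′ UTR and 133 had different or mixed roles among transcripts. A further 6 lay in noncoding transcripts and 22 in no RefSeq exon.

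Within a coding sequence, an exon with a width that is a multiple of 3 leaves the frame after it unchanged. Such widths were more common than the other remainders. Of the 913 bins, 478 (52.4%) were a multiple of 3, 215 left a remainder of 1 and 220 a remainder of 2. When each bin was inserted into the longest RefSeq coding sequence that skips it, translation ran to the normal end for 385 bins. It met a stop codon within the bin for 184, and an early stop after the bin for 169. For 15 no stop was met, and for 160 no insertion was read: 32 bins have no RefSeq transcript that skips them, and the others lay outside such a coding sequence or could not be placed in one.

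Of the 913 bins, 773 had a read in some library, 842 lay in a gene with enough reads, and 425 in 337 genes had enough reads of their own to be tested. Inclusion changed in gemin2 for 29 of the 425 tested bins, 9 higher and 20 lower, in 28 genes. That is 6.82% of the tested skipped exon bins, against 4.71% of all 4649 tested splicing bins and 4.50% of those of the other types, among which retained introns had 7.36% called and bins of multiple events 6.56%. By direction 2.12% of the skipped exon bins were called higher, against 2.60% of all bins, and 4.71% were called lower, against 2.11% of all bins. Of the 29, 16 changed by at least 1 on the log2 scale, 6 higher and 10 lower. All 29 had reads per 100 gene reads that did not overlap between the genotypes. Among all 425 tested, 81 (19.1%) did not overlap, 23 higher and 58 lower, against 18.9% of all tested bins. The calls are from edgeR's quasi-likelihood test at an adjusted p under 0.05 over all 4649 bins, and with DESeq2 10 of the 29 remained, 3 higher and 7 lower.

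**Figure D1:**
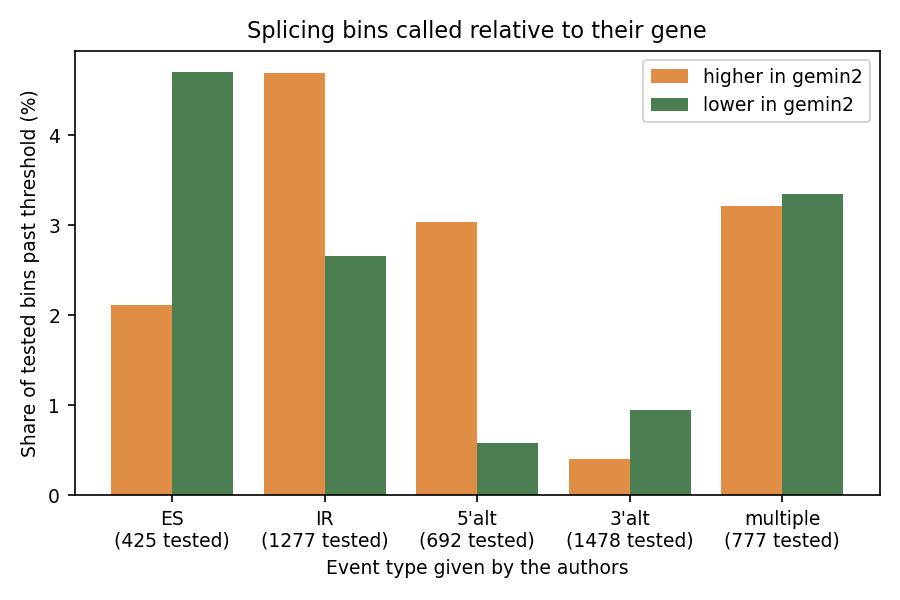
Share of tested bins past the threshold for each event type of the splicing table, higher and lower in gemin2 (percent, edgeR, adjusted p under 0.05, 3 libraries per genotype). Skipped exon bins (ES) had 4.71% lower and 2.12% higher, while retained introns (IR) had 2.66% lower and 4.70% higher.

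Over all tested skipped exon bins, called ones included, the lean to lower inclusion was small in the median. The median log2 change was -0.03 over tested skipped exon bins and -0.00 over all tested bins. Of the tested skipped exon bins, 55.8% had a change below 0, against 49.9% of the other types. At an unadjusted p under 0.05 there were 20 higher and 49 lower, the called 9 and 20 among them. Retained introns, the type with the most calls, had 60 higher and 34 lower of 1277 tested. Alternative 5′ sites had 21 higher and 4 lower of 692, alternative 3′ sites 6 higher and 14 lower of 1478, and bins of multiple events 25 higher and 26 lower of 777. The difference in direction between the types was not tested.

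Read as a total, skipped exon bins took a slightly smaller share of the reads of their genes in every gemin2 library. They held 8.06, 8.02 and 8.09 reads per 100 gene reads of their genes in gemin2 A, B and C, and 8.42, 8.44 and 8.51 in WT A, B and C. The 3 gemin2 values were all below the 3 WT values. However, 35.2% of these reads came from 8 bins, so that a change in the mix of genes moves the total too. Without the genes of those 8 bins the totals were 5.72, 5.76 and 5.90 in gemin2, and 6.09, 6.13 and 6.06 in WT. The median over tested bins of the log2 ratio of bin to gene reads, centred for each bin on all 6 libraries, was -0.02, -0.02 and 0.01 in gemin2 and 0.04, 0.03 and 0.04 in WT. Both of these measures also lay lower in each gemin2 library than in any WT library. Over tested bins that were not called, this median was -0.01, -0.02 and 0.01 in gemin2 and 0.03 in each WT library.

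**Figure D2:**
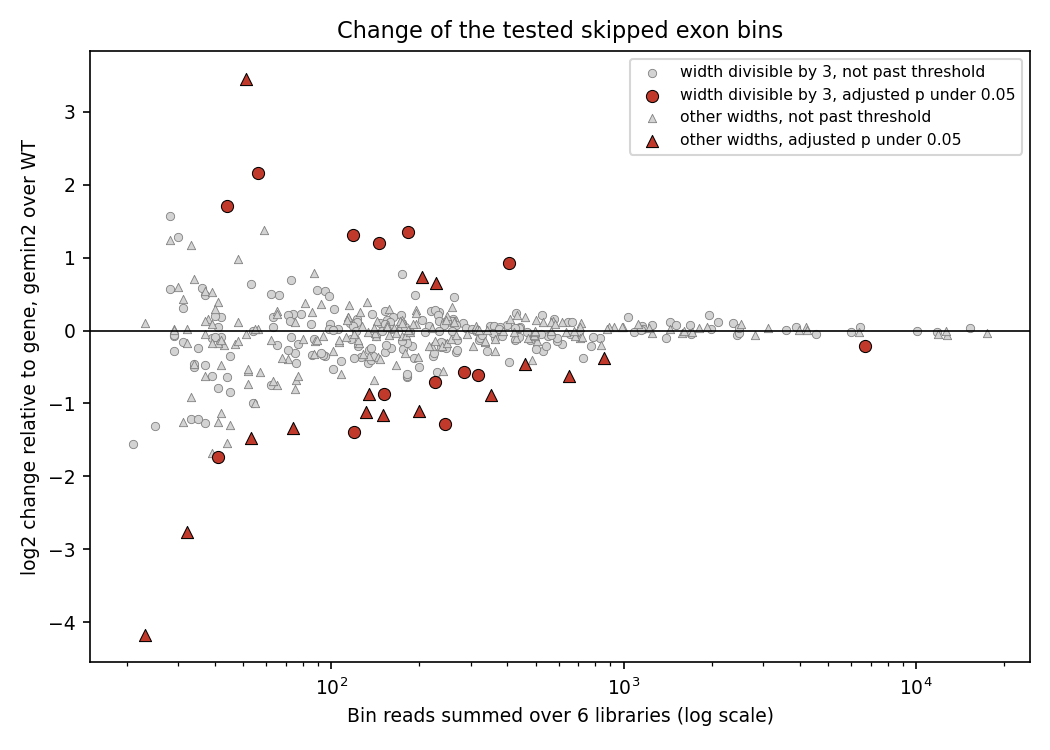
Log2 change of each of the 425 tested skipped exon bins relative to its gene (y axis, gemin2 over WT) against its reads summed over 6 libraries (x axis, log scale). Circles are widths divisible by 3, triangles other widths, and red marks an adjusted p under 0.05. Of the red points 20 lie below 0 and 9 above, and over 1000 reads none lies beyond 0.22 on either side of 0.

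The SE of the change fell with depth, while the share of bins called did not rise steadily with it. The 134 tested bins with up to 100 reads over all libraries had a median SE of 0.46 on the log2 scale, the 244 bins with over 100 and up to 1000 reads had 0.18, and the 47 bins with more had 0.06. Called bins numbered 8, 20 and 1 in these classes, in that order. These were 5.97%, 8.20% and 2.13% of the bins in each class, against 6.82% of all tested skipped exon bins. In the deepest class the largest absolute change was 0.22 on the log2 scale. ATGSR2 E004, 160 coding bases in a gene for cytosolic glutamine synthetase, had 17462 reads in all. It averaged 23.5 ± 0.365 reads per 100 gene reads in gemin2 and 24.1 ± 0.571 in WT (SD, n = 3 each; log2 change -0.04, SE 0.0252). ATL5 E006, 219 coding bases in a gene for ribosomal protein L5, averaged 29.9 ± 0.379 in gemin2 and 29.3 ± 0.738 in WT (log2 change 0.03, SE 0.0261). Neither passed the test, and the genotypes overlapped within these narrow ranges.

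The bin with the smallest p was lower in gemin2 and lay in DEP1 (AT5G53850), which codes for a dehydratase, enolase and phosphatase of the methionine salvage pathway. DEP1 E012, the 48-base exon shown first above, had 21, 21 and 19 reads in gemin2 and 60, 64 and 60 in WT, here and below in the order A, B and C. Every gemin2 library was well below every WT library, and the replicates of a genotype lay close together. Relative to the gene this was 1.81 ± 0.123 reads per 100 gene reads in gemin2 and 4.42 ± 0.405 in WT (SD, n = 3 each), a log2 change of -1.28 (SE 0.18, adjusted p = 2.48e-06). The gene itself was lower as well, by a log2 fold change of -0.43 (adjusted p = 1.21e-05). Inclusion keeps the frame: the RefSeq protein with the exon is 523 residues long and that without it 507.

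PRP39 is a component of the U1 particle that helps it bind the donor site, and it is the one gene with more than 1 called bin. Both bins were lower in gemin2. PRP39 E009 had 13, 28 and 26 reads in gemin2 and 40, 47 and 46 in WT, and PRP39 E010 had 14, 18 and 17 in gemin2 and 33, 34 and 34 in WT. The genotypes did not overlap in either, though gemin2 A was below the other gemin2 libraries in E009. The log2 changes were -1.11 (SE 0.203, adjusted p = 0.000217) for E009 and -1.16 (SE 0.219, adjusted p = 0.00033) for E010. The level of the gene did not pass the test, with a log2 fold change of 0.01 (adjusted p = 0.944). The exons stand next to each other and measure 101 and 64 bases, together 165, which is a multiple of 3. The RefSeq protein that holds both is 823 residues long, 55 more than the 768 of the longest protein that skips them. Inserted alone, E009 shifted the frame to an early stop after it, and E010 met a stop that begins at its base 13.

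The introns beside the PRP39 exons had fewer reads in most gemin2 libraries too. Intron I007, before E009, had 6, 1 and 5 reads in gemin2 and 12, 13 and 10 in WT. The intron between the exons, I009, had 5, 16 and 16 in gemin2 and 15, 24 and 36 in WT, so there the genotypes overlapped in reads. Intron I011, after E010, had 30, 27 and 19 in gemin2 and 46, 51 and 35 in WT. Per 100 bases and 1000 gene reads, E009 had 11.5 ± 3.83 in gemin2 and 25.1 ± 2.31 in WT, and I011 had 9.95 ± 2.52 in gemin2 and 18.7 ± 2.46 in WT. Over the 16 called bins with both flanking introns in the table, the flanking introns had a median of 0.0956 times the reads per base of the bin, and over all 227 such tested bins 0.0208. How far reads of unspliced RNA make up the exon counts was not tested.

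**Figure D3:**
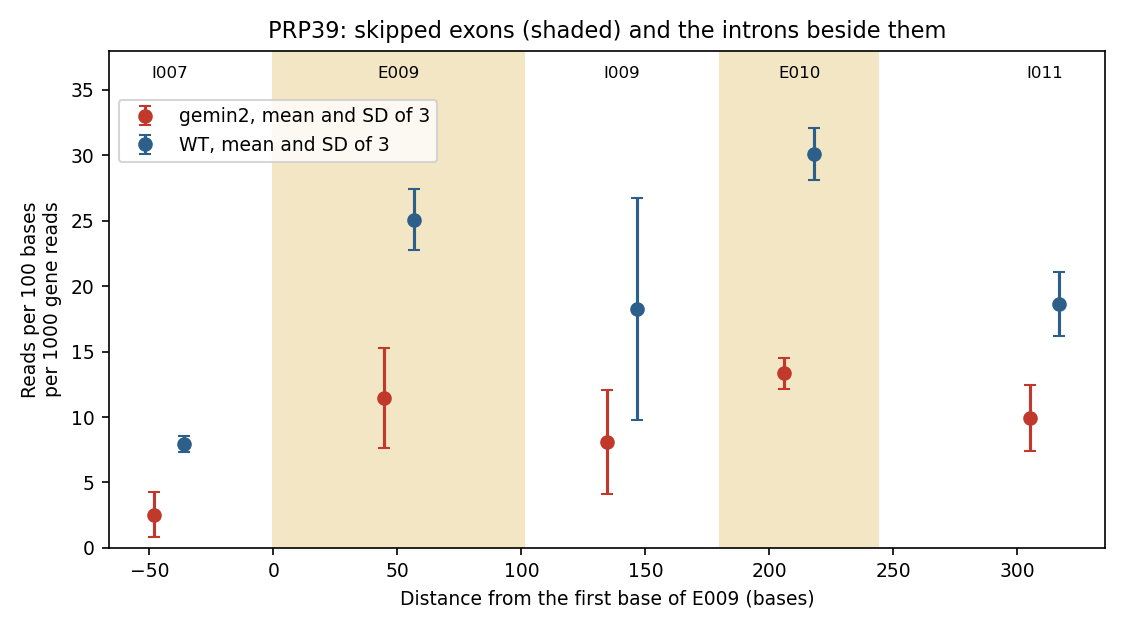
Reads per 100 bases and 1000 gene reads (y axis) for the PRP39 skipped exons E009 and E010 (shaded) and the introns I007, I009 and I011 beside them, by distance from the first base of E009 in bases (x axis). Points and bars are the mean and SD of 3 libraries, gemin2 left of WT. The gemin2 mean lies below the WT mean in all 5 segments, and the bars of the genotypes overlap in the intron I009.

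AT1G13350 E010, 81 coding bases in a gene annotated as a protein kinase, had 7, 11 and 11 reads in gemin2 and 24, 32 and 35 in WT. The gemin2 libraries were all far below the WT libraries, with a log2 change relative to the gene of -1.39 (SE 0.277, adjusted p = 0.000675). The gene was also lower, with a log2 fold change of -0.36 (adjusted p = 0.000562). The intron before the exon, I011, moved with it, with 15, 18 and 17 reads in gemin2 and 48, 57 and 59 in WT, and its part in the result was not tested. AT3G25840 E016, a 5′ UTR exon of 56 bases in a gene also annotated as a kinase, had 1, 2 and 2 reads in gemin2 and 11, 7 and 9 in WT (log2 change -2.77, SE 0.588, adjusted p = 0.00163). Its gene was higher in gemin2, by a log2 fold change of 0.31, so bin and gene moved apart. AT5G26110 E006, 81 bases in a gene with the same annotation, had 19, 17 and 16 reads in gemin2 and 33, 34 and 32 in WT (log2 change -0.87, SE 0.222, adjusted p = 0.0115). Its adjusted p was 0.0909 without WT A and 0.0806 without gemin2 B.

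CPSF73-I is the endonuclease that cuts precursor RNA before the polyA tail is added. Its bin E003, 40 bases in the 3′ UTR, had 0, 1 and 0 reads in gemin2 and 5, 11 and 6 in WT. The exon was thus nearly absent from the gemin2 reads, while the level of the gene did not pass the test (log2 fold change 0.05, adjusted p = 0.514). With 1 read in gemin2 and 22 in WT, the ratio of inclusion of gemin2 over WT was 0.0403, with an exact 95% counting interval from 0.000977 to 0.249. The fitted log2 change was -4.17 (SE 0.878, adjusted p = 0.00145) and rests on that single read. The intron that precedes the bin, I003, had 19, 29 and 25 reads in gemin2 and 21, 21 and 14 in WT, with overlap between the genotypes.

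Among the called bins the smallest change was in the one with the most reads. CURT1C (AT1G52220), which bends the thylakoid membranes of the chloroplast, had 881, 1040 and 997 reads of its 87-base exon E004 in gemin2 and 1122, 1419 and 1229 in WT. Relative to the gene this was 30.3 ± 0.556 reads per 100 gene reads in gemin2 and 35.1 ± 0.407 in WT (SD, n = 3 each), without overlap. The log2 change was -0.21 (SE 0.0343, adjusted p = 2.74e-05), and -0.34 with the reads of all splicing bins taken out of the gene count. The protein with the exon has 156 residues, and that without it 127.

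XBAT35 is a ubiquitin ligase that acts in ethylene signalling, and splicing of this exon is known to govern whether the protein goes to the nucleus. XBAT35 E008, 72 bases, averaged 4.24 ± 0.87 reads per 100 gene reads in gemin2 and 6.50 ± 0.314 in WT. Its reads were 41, 37 and 57 in gemin2 and 65, 63 and 55 in WT, so the raw reads of the genotypes overlapped and the shares of the gene did not. The log2 change was -0.61 (SE 0.152, adjusted p = 0.00913), and without gemin2 B it was -0.49 with an adjusted p of 0.111. The remaining lower bins taken by the naming rule were in AT4G34265, AT4G39680 and AT4G08460. AT4G34265 E003, whose 65 bases hold a stop codon when inserted, had 42, 45 and 46 reads in gemin2 and 77, 76 and 66 in WT (log2 change -0.89, SE 0.14, adjusted p = 1.86e-05). The longest RefSeq proteins of this gene with and without the bin are nevertheless equally long. The 5′ UTR bins AT4G39680 E005, in a gene for a SAP domain protein, and AT4G08460 E005 had log2 changes of -0.62 and -1.12 (adjusted p = 0.000396 and 0.00242).

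**Figure D4:**
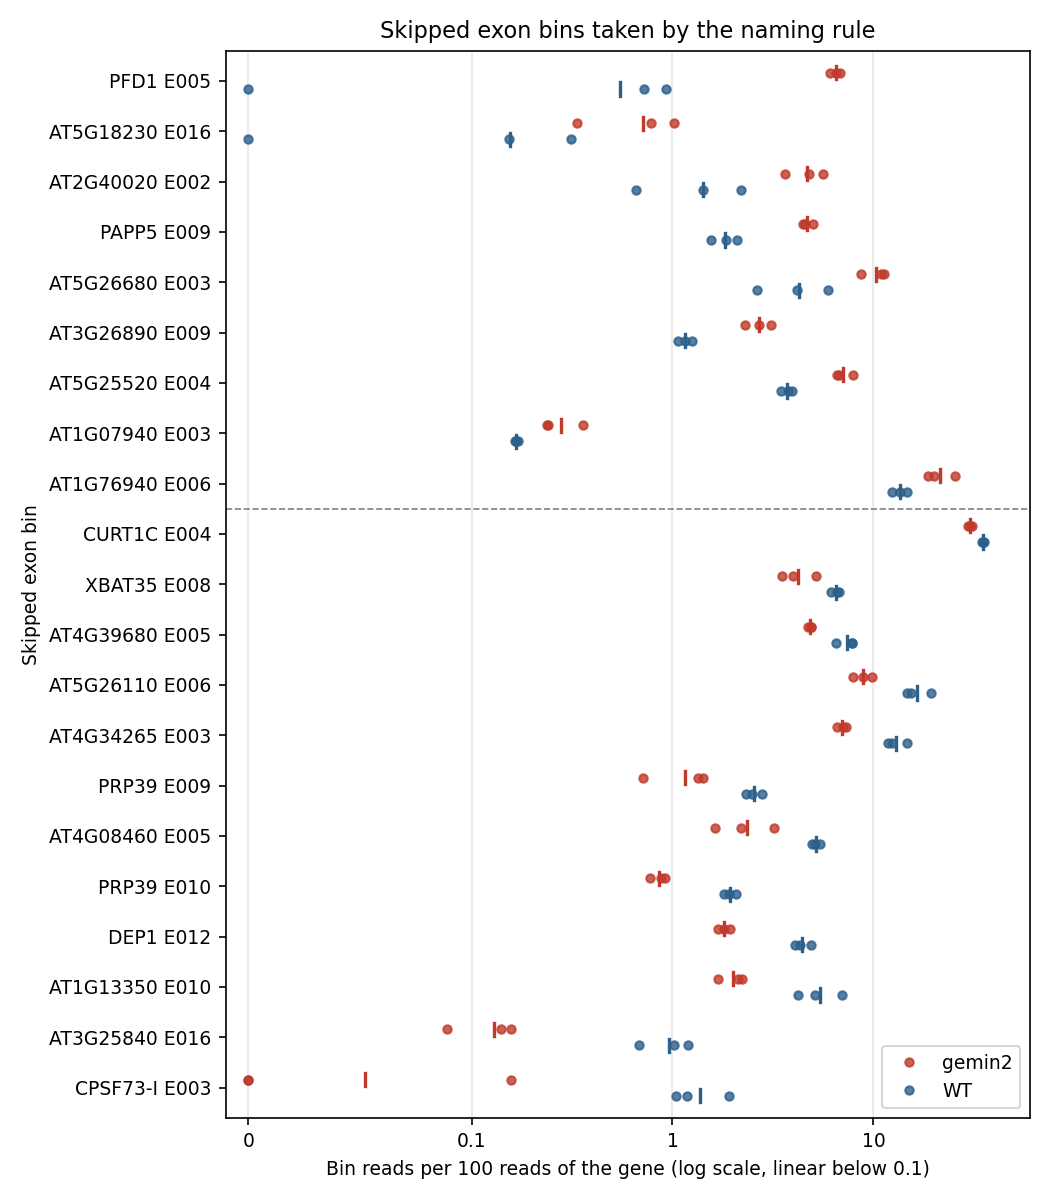
Reads of each named skipped exon bin per 100 reads of its gene (x axis, log scale that is linear below 0.1), with 1 point per library and a bar at the mean of 3, gemin2 above WT in each row. Above the dashed line stand the 9 bins higher in gemin2 and below it the 12 lower ones, and in no row do the genotypes overlap.

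The exon with the largest rise was also among the shortest. PFD1 codes for a subunit of prefoldin, which hands newly made tubulin and actin to the chaperonin. PFD1 E005, 7 bases long, had 15, 19 and 13 reads in gemin2 and 2, 2 and 0 in WT. It was read in all gemin2 libraries and hardly at all in WT, with 6.48 ± 0.366 reads per 100 gene reads in gemin2 and 0.55 ± 0.487 in WT. The log2 change was 3.46 (SE 0.539, adjusted p = 1.71e-05), against a total of 4 WT reads. The gene did not pass the test (log2 fold change -0.14, adjusted p = 0.241). Although 7 is not a multiple of 3, the RefSeq protein with the exon has 128 residues and that without it 127. The intron after the exon, I006, had 14, 9 and 8 reads in gemin2 and 6, 3 and 3 in WT. PFD1 also has an alternative 5′ site bin of 4 bases, E004, at chr2:3046148-3046151, upstream of E005. E004 had 0, 1 and 0 reads in gemin2 and 3, 5 and 2 in WT, and was not among the tested bins. How E004 and E005 combine in transcripts was not tested.

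PAPP5 is a protein phosphatase that acts on phytochromes, and its longer form, which includes the exon, is known to carry membrane-spanning segments. PAPP5 E009, 162 bases, had 45, 54 and 43 reads in gemin2 and 15, 15 and 11 in WT. All gemin2 libraries were above all WT libraries, with 4.67 ± 0.284 reads per 100 gene reads in gemin2 and 1.83 ± 0.269 in WT. The log2 change was 1.35 (SE 0.213, adjusted p = 2.10e-05), beside a rise of the gene of 0.32 (adjusted p = 0.000393). Inclusion keeps the frame, and the RefSeq protein grows to 538 residues against 484. The intron after the exon, I008, moved with it, with 19, 42 and 29 in gemin2 and 9, 5 and 6 in WT, and its part in the result was not tested.

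A further 3 exons rose and kept their calls when any single library was left out. AT5G25520 E004, 207 bases in a gene with a SPOC domain, had 90, 113 and 113 reads in gemin2 and 27, 32 and 31 in WT. Part of that is the level of the gene, which rose by 0.76 on the log2 scale, and the bin rose by 0.93 beyond it (SE 0.153, adjusted p = 3.87e-05). AT5G26680 E003, 210 bases in a gene for a 5′-3′ exonuclease family protein, had 30, 33 and 23 reads in gemin2 and 10, 8 and 15 in WT (log2 change 1.31, SE 0.273, adjusted p = 0.00127). Its RefSeq protein has 453 residues with the exon and 383 without it. AT3G26890 E009, 72 bases of 5′ UTR, had 42, 41 and 34 reads in gemin2 and 9, 12 and 8 in WT (log2 change 1.20, SE 0.255, adjusted p = 0.00163), in a gene that rose by 0.69.

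The other 4 higher bins lost their calls when single libraries were left out. AT5G18230 E016, 6 bases in a gene of the NOT2/NOT3/NOT5 family, found in the complex that shortens polyA tails, had 7, 24 and 17 reads in gemin2 and 5, 3 and 0 in WT. Its log2 change was 2.16 (SE 0.53, adjusted p = 0.00779), and the adjusted p was 0.129 without gemin2 B, 0.0632 without gemin2 C and 0.0761 without WT C. AT1G76940 E006, 122 bases in a gene for an RNA-binding protein, had 55, 47 and 43 reads in gemin2 and 26, 31 and 26 in WT (log2 change 0.65, adjusted p = 0.0226). Its adjusted p was 0.24 without gemin2 A, 0.126 without WT A and 0.076 without WT B. AT1G07940 E003, 164 bases of 5′ UTR in a gene for an elongation factor, had 36, 38 and 54 reads in gemin2 and 22, 29 and 25 in WT (log2 change 0.73, adjusted p = 0.0173). Without gemin2 C its log2 change was 0.51 with an adjusted p of 0.327. Without WT A, WT B or WT C the adjusted p was 0.0634, 0.0565 and 0.0637. The introns on both sides of this exon moved with it. The intron before it, I004, had 12, 12 and 7 reads in gemin2 and 4, 5 and 4 in WT. The intron after it, I002, had 16, 19 and 20 in gemin2 and 6, 5 and 7 in WT. Their part in the result was not tested. AT2G40020 E002, 45 bases, had 8, 12 and 12 reads in gemin2 and 6, 2 and 4 in WT (log2 change 1.71, adjusted p = 0.0209). The adjusted p was 0.0921 without gemin2 B, 0.158 without gemin2 C, 0.139 without WT B and 0.0684 without WT C.

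A further 8 bins, all lower in gemin2, were called but fell outside the rule that chose which to name, and they are given here after their values were seen. Their log2 changes lay between -1.74 and -0.37. They were in UMAMIT47, a transporter gene (-0.70), PAT1, a GRAS regulator of phytochrome signalling (-0.87), PAA1, a copper pump of the chloroplast (-0.37), and EBS4, a mannosyltransferase of the ER (-0.56). With the reads of all splicing bins taken out of the gene count, the EBS4 change was -1.08 (adjusted p = 0.00267). The others were in the ACT domain gene ACR1 (-1.47), in IAA8, a repressor of auxin response (-1.74), in AT1G75180 (-1.34) and in AT2G45250 (-0.46). The IAA8 change was -2.82 without gemin2 C and -1.37 without gemin2 A. Each of them lost its call when some single library was left out. Without gemin2 A the adjusted p was 0.111 for UMAMIT47, 0.0837 for PAT1, 0.104 for PAA1, 0.171 for EBS4, 0.184 for ACR1, 0.211 for IAA8 and 0.111 for AT2G45250. Without gemin2 B it was 0.121 for EBS4, 0.235 for IAA8 and 0.111 for AT2G45250. Without gemin2 C it was 0.068 for UMAMIT47, 0.0538 for PAT1, 0.0738 for PAA1, 0.0728 for ACR1, 0.113 for AT1G75180 and 0.0575 for AT2G45250. Without WT A it was 0.0841 for UMAMIT47, 0.0651 for PAA1, 0.0869 for EBS4 and 0.31 for IAA8. Without WT B it was 0.132 for PAA1, 0.0823 for EBS4, 0.104 for ACR1, 0.107 for IAA8, 0.0777 for AT1G75180 and 0.156 for AT2G45250. Without WT C it was 0.0579 for PAT1, 0.0654 for EBS4, 0.156 for ACR1 and 0.16 for AT2G45250.

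Bins with an adjusted p just above the threshold included neighbours in 1 gene. EBS4 E016, the exon after the called EBS4 E015, had a log2 change of -0.56 (SE 0.178, adjusted p = 0.0647). ATG12A, a ubiquitin-like protein of autophagy, had E004 at -0.62 (adjusted p = 0.0685) and E005 at -0.64 (adjusted p = 0.0582). ATARI5 E004, in a RING-type gene, had 16, 21 and 11 reads in gemin2 and 4, 4 and 3 in WT (log2 change 1.38, adjusted p = 0.0582). The introns beside ATARI5 E004 were higher too. I002, before it, had 32, 36 and 38 reads in gemin2 and 17, 10 and 2 in WT. I004, after it, had 30, 43 and 19 in gemin2 and 5, 5 and 6 in WT. The part of these introns in the change was not tested.

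Called bins were found both among widths divisible by 3 and among the others. This split goes by width alone and includes bins outside coding sequence. Of 224 tested bins with a width divisible by 3, 14 (6.25%) were called, 6 higher and 8 lower, with a median log2 change of -0.02. Of 201 tested bins of other widths, 15 (7.46%) were called, 3 higher and 12 lower, with a median of -0.03. Changes below 0 made up 54.9% of the first and 56.7% of the second. Of 162 tested bins that keep the normal end of the protein 3 were higher and 6 lower, and of 95 with a stop codon inside the bin 1 was higher and 6 lower. Of 62 that lead to an early stop after the bin 2 were higher and 1 lower. Another 95 tested bins had no insertion read, with 3 higher and 7 lower, and of 11 where no stop was met 0 were called. The difference in direction between these classes rests on few bins and was not tested.

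In sequence and position the called bins were read as a description, since only 9 were higher and 20 lower. The median width was 122 bases for the higher bins and 80.5 for the lower bins, against 79 for the 396 tested bins that were not called. Their GC content had medians of 42.9% for the higher bins, 39.3% for the lower bins and 41.8% for those not called. In the last 15 bases of the intron before the exon, the median share of C and T was 60% for the higher bins, 50% for the lower bins and 56.7% for those not called. The first 5 bases after the exon read GTAAG, the letters that pair best with the U1 RNA, for 0 of 9 higher bins, 6 of 20 lower bins, 48 of 396 not called, and 84 (9.20%) of all 913, on the gene's strand and at this position alone. XBAT35 E008 above is one with this donor. A match at this position is no measure of the strength of a site.

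**Figure D5:**
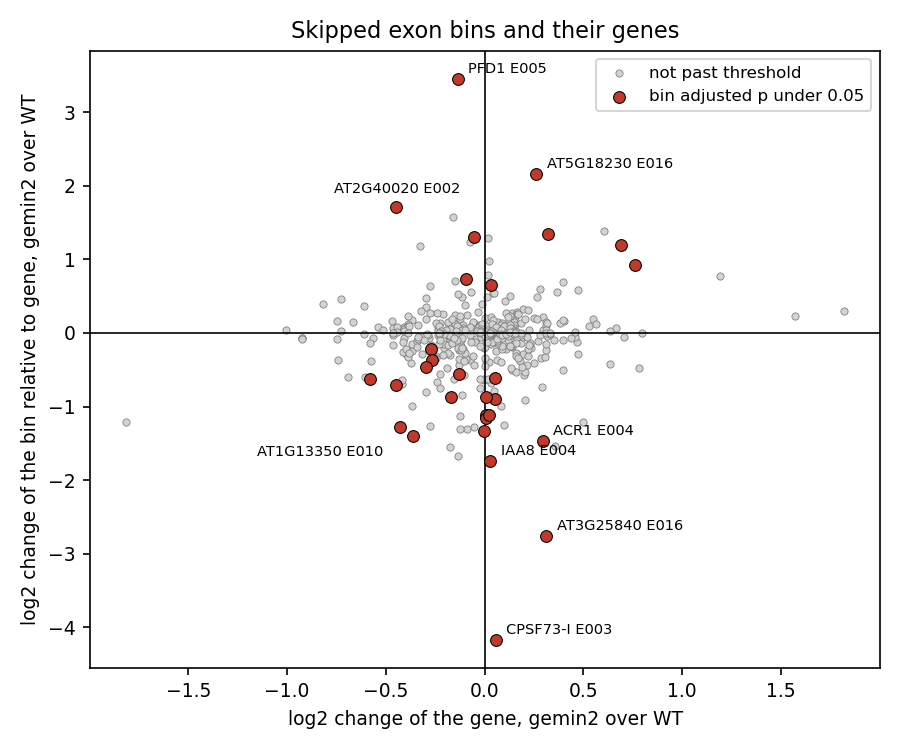
Log2 change of each tested skipped exon bin relative to its gene (y axis) against the log2 change of the gene (x axis), gemin2 over WT, 425 bins. Red marks bins with an adjusted p under 0.05. The genes of the red points lie between -0.58 and 0.76, and the bins with the largest changes, PFD1 E005 and CPSF73-I E003, have genes near 0.

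Many genes that carry skipped exons changed in level themselves. Of 676 such genes tested, 283 (41.9%) passed the threshold, 136 higher and 147 lower, against 36.7% of all genes. Their median log2 fold change was -0.01, and that of all genes was -0.00. Of the 28 genes with a called bin, 6 were higher, 8 lower and 14 did not pass. Of the 29 called bins, 11 moved the same way as a gene past the threshold, 3 the opposite way, and for 15 the gene did not pass. The bin and its gene share reads if the gene count includes the bin, which the sources used here do not state.

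Lists of splicing genes were read for skipped exon bins, which 676 of all 20762 tested genes held. Of 20 genes for SR proteins, the serine and arginine-rich regulators of splice site choice, 4 held 5 bins, and 0 of the 4 tested were called by edgeR, with 0 at an unadjusted p under 0.05 and a median log2 change of -0.13. The one with the smallest p was SR45a E005, with 52, 50 and 40 reads in gemin2 and 59, 87 and 53 in WT (log2 change -0.28, SE 0.144, adjusted p = 0.442, unadjusted p = 0.0717). Without a gene offset SR45a E005 had a log2 change of -0.60 (adjusted p = 0.0104), beside a gene that fell by 0.32. Among 25 other splicing and RNA-binding genes, 5 held 6 bins, all tested, with 0 higher and 2 lower. Both are the PRP39 exons, which are also the only 2 of the 6 at an unadjusted p under 0.05. The median log2 change of the 6, the PRP39 exons included, was -0.51, against -0.00 over all tested bins. These lists are a selection of loci, and the kinase genes AT1G13350 and AT3G25840, with called lower bins, are in neither of them. The 10 genes of nonsense-mediated decay and the exon junction complex held 0 skipped exon bins.

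Clock, flowering and light genes had 0 calls by edgeR in the fit relative to the gene count (the flowering bin MAF5 E003 is called with other offsets, given below), and 0 of the 10 DESeq2 calls were in them or in SR genes. At an unadjusted p under 0.05 there was 1 bin among the clock genes, 1 among the flowering genes and 0 among the light genes. Among 26 clock genes 2 held a bin, and the 1 tested was LNK1 (AT5G64170) E007, in a coactivator of evening clock genes. It had 28, 36 and 31 reads in gemin2 and 23, 29 and 19 in WT, but relative to a gene that rose by 0.78 its log2 change was -0.47 (SE 0.205, adjusted p = 0.317, unadjusted p = 0.0382). Among 20 flowering time genes 4 held 7 bins, of which 3 were tested, with a median log2 change of 0.02. MAF5 (AGL68) E003, in a repressor of flowering of the FLC family, had 3, 3 and 5 reads in gemin2 and 10, 11 and 9 in WT, without overlap. Its log2 change was -1.26 (SE 0.481, adjusted p = 0.16, unadjusted p = 0.0127), and the change was not called. With the gene count less the bin's own reads as offset its log2 change was -1.64 (adjusted p = 0.046), and without a gene offset -1.53 (adjusted p = 0.0287), both past the threshold. Among 23 light signalling genes 2 held a bin, both tested, with a median log2 change of 0.15. The one with the smaller p was PIF1 (PIL5) E003, in a repressor of germination, at 22.9 ± 1.64 reads per 100 gene reads in gemin2 and 21.1 ± 1.75 in WT (log2 change 0.12, adjusted p = 0.79).

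The authors' deposited table of their own comparison lists 40 skipped exon bins among 324 bins of all types, 14 higher and 26 lower in the mutant. Of these 40 in the authors' deposited table, 24 (60%) were called here, which are 82.8% of the 29 calls. The lists rest on different thresholds: the skipped exon bins in the authors' deposited table have a false discovery rate of up to 0.0933 and an absolute log2 splicing index ratio of at least 0.602. All 36 of the authors' bins that were tested here had the same sign as in their table. Both comparisons rest on the same libraries, so this agreement is no independent check. The table also holds bins too low to be tested here. PDIL5-4 E002 had 8, 2 and 8 reads in gemin2 and 0 in each WT library. MAD2 E003, in a gene of the spindle checkpoint, had 33, 2 and 1 reads in gemin2 and 0, 6 and 0 in WT, so that gemin2 A carries it.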

How the data were processed

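Whole plants of 2 genotypes, gemin2 and WT, were sequenced with 3 libraries each. The deposited tables give whole-number read counts for genes, splicing bins and introns, with no normalisation. The authors' deposited table of their own comparison gives log2 fold changes with adjusted p-values and log2 splicing index ratios. The submitters' processing notes name TAIR10, edgeR 3.4.2, R 3.0.2 and TopHat2 2.0.9. How reads were counted, and how those with several matches were treated, is not given in the sources used here, and no label names a strand-marking step, so overlapping genes may share reads (5 of the bins, 0 of them called). Every read that touches a bin may be counted for it, so reads per base of a very short bin are not comparable with those of a long one.

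Bins were compared in R 4.3.3 with edgeR 4.0.16 (quasi-likelihood F test on counts, two-sided, gemin2 over WT, log of the same library's gene count as offset, Benjamini-Hochberg over all 4649 tested bins, threshold 0.05). Bins needed a minimum count of 5 under filterByExpr and a gene with a mean of at least 20 reads. Gene counts were tested with TMM normalisation and a minimum count of 10. The SE is the size of the log2 change over the square root of F. Scripts were tested on simulated data. Centred ratios used 0.5 added to both counts. Intervals cover counting error only. The intron table is held in part (65535 introns, on chromosomes 1, 2 and part of 3). Columns of sample values left out numbered 0.

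Named bins are those past the threshold without overlap between genotypes, up to 12 per direction by smallest p, and from each gene list the called bins or the one with the smallest p. The bins and the lists were chosen with earlier results of these data known. Names are from the deposited table or RefSeq (721 of 721 genes matched). Alternatives were another offset, DESeq2 1.42.0, a robust fit, other minimum counts, thresholds and gene filters, a block on the column letters, and leaving out each library.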

Additional observations from a re-analysis of the deposited data

How the results depend on the processing

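Against 29 called bins, leaving out the gene offset gave 83 (21 higher, 62 lower), since changes of the gene then count, and DESeq2 gave 10, with 5 of widths divisible by 3 and 5 of others; for DESeq2 the cause was not tested. An adjusted p under 0.01 left 17 and an absolute log2 change of at least 1 left 16, by construction. LNK1 E007 turned to 0.30 without the gene offset, and called values grew by over 1.5 times for AT5G25520 E004 (1.69), AT3G26890 E009 (1.88), CURT1C E004 (-0.49), AT4G39680 E005 (-1.20), UMAMIT47 E008 (-1.15), PAA1 E005 (-0.64) and AT2G45250 E004 (-0.76). Leaving out each library in turn gave 23 to 26 called bins, 11 to 15 of widths divisible by 3, 10 to 15 of others, 228 to 247 called genes with such bins, and -1.84 to -1.79 for GEMIN2. Without WT B 11 bins were higher and 14 lower, so the higher share was 44%, against 31.0% with all libraries, and 19 of the 29 calls remained. DEP1 E012, PFD1 E005, PAPP5 E009, both PRP39 bins, AT1G13350 E010, CURT1C E004, AT4G34265 E003, AT4G39680 E005 and AT5G25520 E004 kept their direction and call under every alternative that gave them a value. With DESeq2 the adjusted p was 0.0583 for CPSF73-I E003, 0.0501 for AT3G25840 E016, 0.0833 for AT5G26680 E003 and 0.116 for AT3G26890 E009. For AT4G08460 E005 it was 0.124 with DESeq2. After seeing the data the block described below and 2 other alternatives were added: without bins under 10 bases 27 were called, and with the gene count less all splicing bins as offset 26. The columns of both genotypes carry the letters A to C, which no label ties to a replicate number or says to mark a shared batch. With a replicate block on these letters 27 bins were called (9 higher, 18 lower), all among the 29, with 13 of widths divisible by 3 and 14 of others; IAA8 E004 (adjusted p = 0.0855) and AT2G45250 E004 (adjusted p = 0.0574) were not. Deviations of same-lettered libraries from their genotype mean, over tested genes, correlated at -0.01 for A, -0.02 for B and -0.06 for C, and no library correlated best with its own letter. Bins with up to 100 reads had a median SE of 0.46, and the called ones among them had an absolute log2 change of at least 1.34.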
